A study of Mus musculus with 2 samples.

Results

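The genes described here are the core DNA replication genes of a table that compares p53 knockout with wild-type nephron progenitor cells of the mouse kidney. They were chosen by symbol alone, as the protein coding genes named for the origin recognition complex, the MCM proteins, GINS, the replicative polymerases and primase, the sliding clamp and its loader, RPA, flap and RNA primer processing, topoisomerases, and the enzymes Rrm1, Rrm2, Dut and Tyms of nucleotide supply. Of 56 annotated protein coding genes that fit these names, 34 are among the 9388 protein coding genes of the table, which lists 10627 genes in all. The other 22 (Cdc45, Cdt1, Dut, Gins1, Gins3, Gins4, Gmnn, Mcm3, Mcm5, Mcm9, Orc3, Pola1, Pole, Pole2, Pole3, Prim1, Rfc1, Rfc3, Rfc4, Rpa3, Rrm1 and Top2a) are not analysed here.

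RNA was sequenced from cap mesenchyme cells sorted by flow cytometry from embryonic kidneys at day 15.5, in 1 library for each genotype. The knockout library (KO) came from Six2CreGFP+;p53f/f embryos, in which Cre made by a Six2 transgene deletes floxed p53, so the deletion follows the cells in which that transgene is active. The wild-type library (WT) came from Six2CreGFP+;p53+/+ embryos, so both groups carry the Cre and GFP transgene, and both have a mixed CD1 and C57BL background. How many embryos were pooled for a library is not given in the sources used here. With 1 library per genotype no difference has a replicate check, and no p-value between genotypes can be had.

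A cell copies its genome once per cycle. In G1, the origin recognition complex and Cdc6 load the MCM ring onto DNA, and in S phase the ring is turned into the active helicase with Cdc45 and GINS, after which primase, the polymerases, the clamp and ligase build the new strands. Many of these genes are transcribed by E2F factors at the G1/S transition, and p53 can hold that transition back through Cdkn1a, the inhibitor of cyclin-dependent kinases also called p21. Nephron progenitors both divide and differentiate while the kidney grows, so their RNA normally holds transcripts of this machinery.

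The values are read densities in RPKM, a read count scaled to gene length and to library depth, and the difference is log2(KO + 1) minus log2(WT + 1), which understates folds of genes with low densities. The implied depth was 85600000 reads in KO and 91200000 reads in WT. Ratios of KO to WT carry an exact 95% interval made from estimated reads, which covers counting error only. The estimated reads behind a member ran from 547, for Orc1 in WT, to 57727, for Mcm2 in WT, and the interval's median half-width was 0.051 on the log2 scale. No gene in the table has a deposited corrected p-value over 0.05 for the 2 libraries, so every member had to differ somewhat to be in it.

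Trp53, the gene that codes for p53, had 5.38 RPKM in KO and 33.9 RPKM in WT, a ratio of 0.158 (interval 0.151 to 0.166), and its density covers the whole gene model, exons outside the deleted part included. Cdkn1a had 12.7 RPKM in KO and 22.5 RPKM in WT, a log2 difference of -0.77. The progenitor markers Six2 and Cited1 had 509 and 16.1 RPKM in KO, against 482 and 23.6 RPKM in WT. The sort itself selects for Six2 expression.

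The listed replication genes differed little in level between the libraries. Of the 34 genes, 20 were lower and 14 higher in KO, with a median log2 difference of -0.071 and a range from -0.35 to 0.31. Among all listed protein coding genes 63.7% were lower in KO, with a median of -0.11. The median of the 34 genes depends on the library scaling: it was -0.016 under the library scaling that the authors' deposited fold ratio carries, and 0.00051 with both libraries centred on their median difference, and the counts then were 19 and 17 lower. With GC content and length corrected for, 29 were lower and 5 higher, with a median of -0.099, where 73.6% of the genes of at least median density were lower with a median of -0.072.

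Few members reached a difference of 1.2-fold on this scale, and none reached 1.5-fold. Fen1, Rnaseh2c and Rnaseh2b were at least 1.2-fold lower in KO, 3 of 34, against 20.8% of all listed protein coding genes. Mcm8 was the only one at least 1.2-fold higher, 1 of 34, against 8.08%. Top1 at 0.25 and Pold4 at -0.24 lay just short of that size.

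A comparison with genes of like abundance used a floor of 7.54 RPKM, the median mean density of the listed protein coding genes. Over it were 28 members, of which 18 were lower in KO, against 55.7% of all genes over the floor. Their median was -0.074, and that of all genes over the floor was -0.072. Of these 28, 2 were at least 1.2-fold lower, where 11.2% of all genes over the floor were, and 0 were at least 1.2-fold higher, where 8.12% were. A difference of 1.5-fold in either direction was seen in 3.09% of genes over the floor and in 0 members. The 6 members under the floor were Orc1, Orc4, Mcm8, Mcm10, Rnaseh2a and Rnaseh2b.

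**Figure D1:**
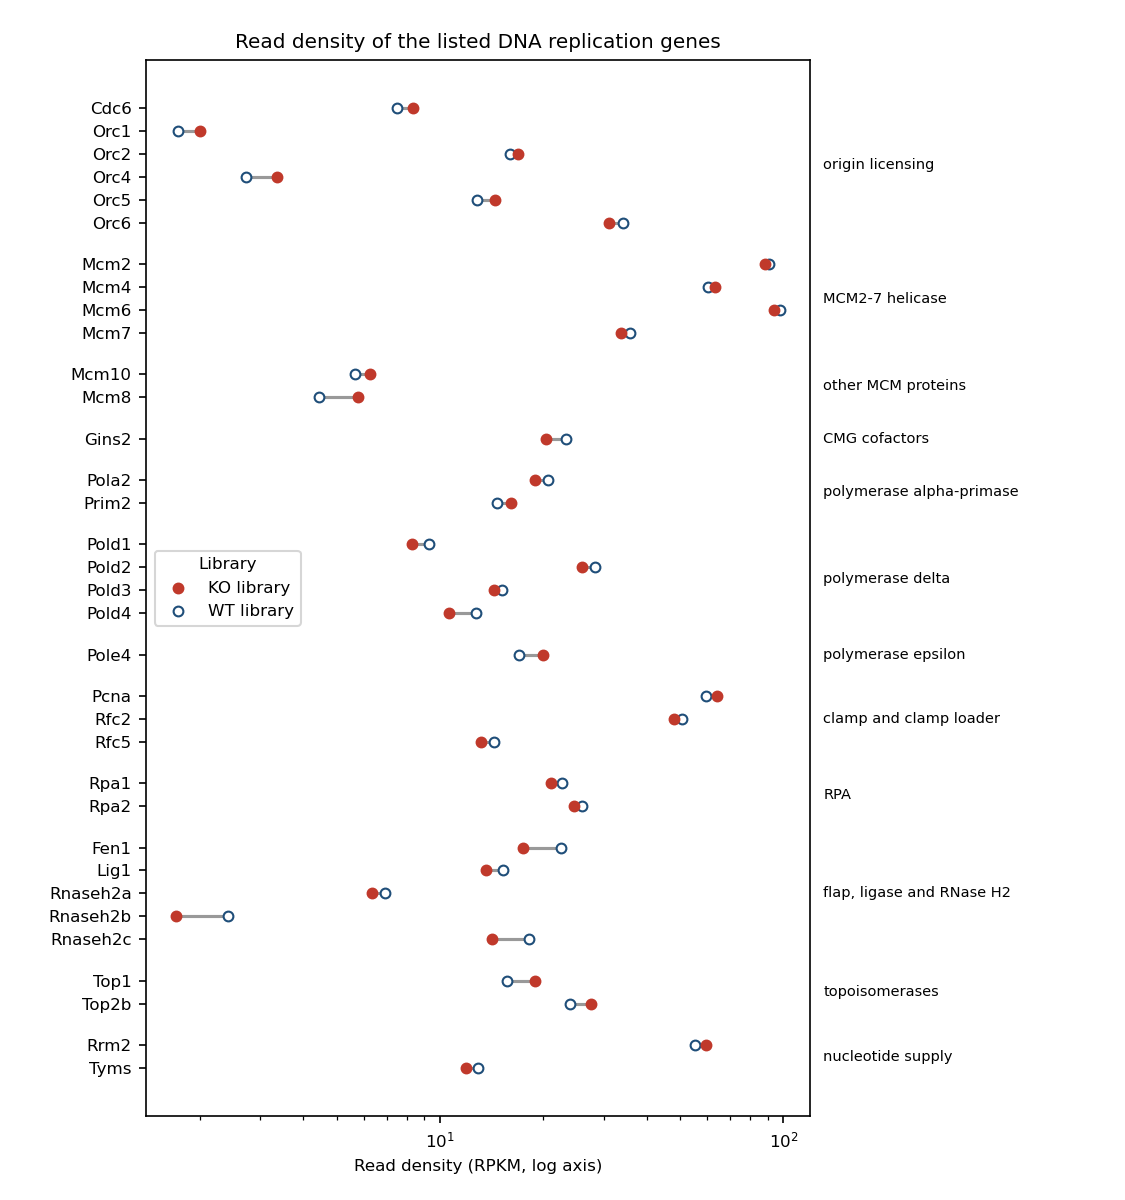
Read density in RPKM (log axis) of the 34 listed DNA replication genes, grouped by role, with filled red points for the KO library, open blue points for the WT library and a line joining them. Densities span 1.71 RPKM for Rnaseh2b to 97.6 RPKM for Mcm6, and the joined points lie close together for most genes.

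**Figure D2:**
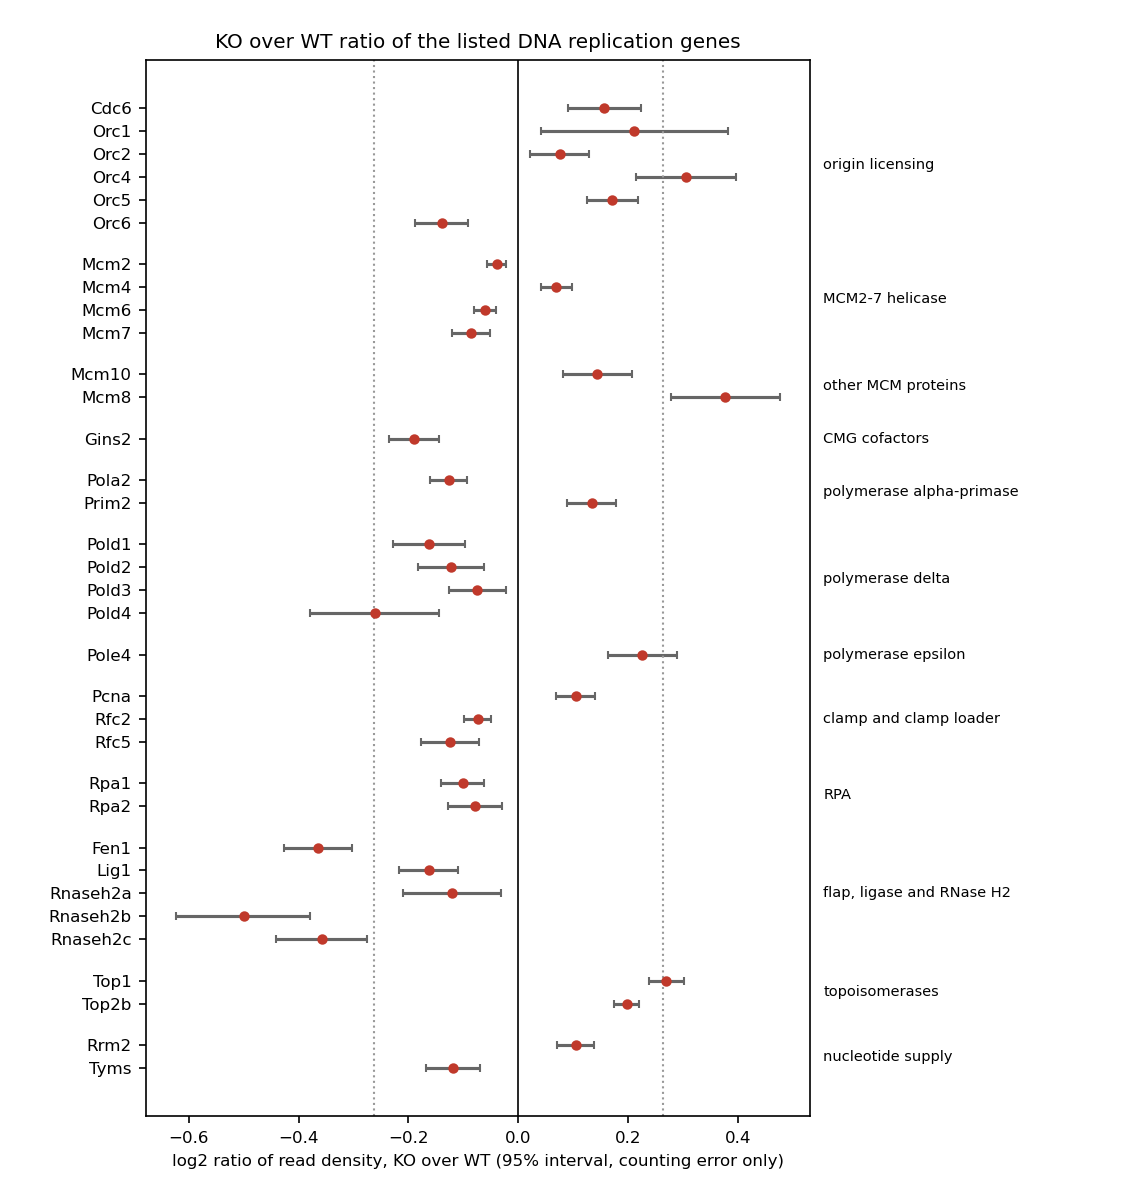
Log2 ratio of read density, KO over WT, of the same 34 genes, with exact 95% intervals that cover counting error only and dotted lines at a ratio of 1.2 in each direction. Fen1, Rnaseh2b and Rnaseh2c lie to the left of the dotted lines and Mcm8 to the right, and no pseudocount is added here, so Orc4 and Top1 also pass the line.

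The promoters of 4 members are shown because they hold a word bound by E2F factors while their genes differed in opposite directions. Mcm6 and Mcm7 were lower in KO, and Mcm8 and Orc1 were higher. Each window runs from 250 bases before to 50 bases after the RefSeq transcription start on GRCm38.p6, written on the gene's own strand. Capitals mark E2F words (TTTCCCGC, TTTGGCGC, TTTCGCGC or TTTGCCGC, on either strand), the CCAAT word and the CHR words TTTGAA and TTCGAA, on either strand; overlapping matches are joined into 1 run of capitals. The windows are Mcm6 at chr1:128359656-128359955 on the minus strand, Mcm7 at chr5:138171834-138172133 on the minus strand, Orc1 at chr4:108579204-108579503 on the plus strand and Mcm8 at chr2:132815891-132816190 on the plus strand. The start used for Mcm7 lies 539 bases inside the deposited 5′ end of the gene.
Mcm6: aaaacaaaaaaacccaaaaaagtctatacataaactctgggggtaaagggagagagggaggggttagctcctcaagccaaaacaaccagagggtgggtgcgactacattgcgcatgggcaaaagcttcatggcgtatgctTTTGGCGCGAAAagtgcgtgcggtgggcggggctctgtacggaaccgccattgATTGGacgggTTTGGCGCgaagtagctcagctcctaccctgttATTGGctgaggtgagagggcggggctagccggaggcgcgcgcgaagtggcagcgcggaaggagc
Mcm7: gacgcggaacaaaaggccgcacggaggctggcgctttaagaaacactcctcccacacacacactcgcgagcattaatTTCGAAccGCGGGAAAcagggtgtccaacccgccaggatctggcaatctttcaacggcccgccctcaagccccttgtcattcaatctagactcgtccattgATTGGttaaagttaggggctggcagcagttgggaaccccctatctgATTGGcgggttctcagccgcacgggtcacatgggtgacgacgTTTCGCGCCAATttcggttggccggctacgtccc
Orc1: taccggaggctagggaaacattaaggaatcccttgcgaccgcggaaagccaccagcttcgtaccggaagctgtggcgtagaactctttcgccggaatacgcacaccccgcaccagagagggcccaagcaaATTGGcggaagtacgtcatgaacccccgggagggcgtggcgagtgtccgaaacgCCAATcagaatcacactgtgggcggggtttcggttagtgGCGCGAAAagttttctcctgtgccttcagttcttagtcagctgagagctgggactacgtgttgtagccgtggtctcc
Mcm8: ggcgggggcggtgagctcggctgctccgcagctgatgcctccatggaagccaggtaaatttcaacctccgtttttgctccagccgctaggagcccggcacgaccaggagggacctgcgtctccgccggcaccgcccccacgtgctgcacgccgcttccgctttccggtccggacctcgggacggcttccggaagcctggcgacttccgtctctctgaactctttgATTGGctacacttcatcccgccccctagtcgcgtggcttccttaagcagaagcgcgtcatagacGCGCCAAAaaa

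The Mcm6 window holds 3 E2F matches, the first 2 of which overlap, and 2 CCAAT matches. The Mcm7 window holds 2 E2F matches, 3 CCAAT matches, 1 of them overlapping an E2F word, and 1 CHR match. Orc1 has 1 E2F match and 2 CCAAT matches, and Mcm8 has 1 of each. A RefSeq window within 1000 bases of the deposited 5′ end was found for 27 members. An E2F word stood in 7 of these 27 windows (25.9%), those of Mcm6, Mcm7, Orc1, Mcm8, Cdc6, Pold1 and Pold3, against 4.32% of 6179 windows of listed genes and 2.26% of all 32851 windows. CCAAT stood in 16 of the 27 (59.3%), against 38.1% of listed genes' windows and 37.4% of all windows, and a CHR word in 4 (14.8%), against 12.9% and 19.2%. Members with an E2F word did not stand apart by direction: 4 of 7 were lower in KO, with a median log2 difference of -0.060, and 12 of the 20 without one were lower (median -0.086). A match is a run of letters, not a shown binding site.

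Origin licensing genes were mostly a little higher in KO. Of the 6 listed, 5 were higher and 1 lower under every library scaling used, with a median log2 difference of 0.14. Among all 9388 listed protein coding genes 3407 were higher as deposited. Orc4, a subunit of the ring that recognises origins, had 3.36 RPKM in KO and 2.72 RPKM in WT, a log2 difference of 0.23 and a ratio of 1.24 (interval 1.16 to 1.32). Orc6, the subunit least like the others, was the exception and also the most abundant, with 31.0 RPKM in KO and 34.2 RPKM in WT, a log2 difference of -0.14 and a ratio of 0.908 (interval 0.878 to 0.938). Orc1, which is made and destroyed with each cell cycle in human cells, was the least abundant, with 2.00 RPKM in KO and 1.72 RPKM in WT. Its ratio of 1.16 has a wide interval, 1.03 to 1.30. The remaining members of the complex, Orc2 and Orc5, and the loader Cdc6 had differences between 0.072 and 0.16. Cdc6 had 8.34 RPKM in KO and 7.48 RPKM in WT. Set against genes of the same GC content and length, the median of the 6 was near 0, at -0.0067, and Orc6 stood at -0.21 and Orc1 at 0.21.

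The MCM2-7 helicase genes were abundant and differed little, and Mcm6 and Mcm2 were the most abundant of all 34 genes. Mcm6 had 93.6 RPKM in KO and 97.6 RPKM in WT, Mcm2 had 88.6 RPKM in KO and 91.0 RPKM in WT, and Mcm4 had 63.3 RPKM in KO and 60.3 RPKM in WT. These code for parts of 1 ring that is loaded at origins as a whole. Mcm7, the least abundant of the 4 listed, had 33.7 RPKM in KO and 35.8 RPKM in WT. Their log2 differences were -0.060, -0.038, 0.069 and -0.083 in that order, so 3 were lower and 1 higher in KO, while Mcm2 was higher with the authors' scaling and Mcm2 and Mcm6 were higher when centred. Summed over the 4, the density was 279 RPKM in KO and 285 RPKM in WT.

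The other listed MCM proteins, which are not part of that ring, were both higher in KO under every library scaling used, where 3407 of all 9388 listed protein coding genes were higher as deposited. Mcm8 had 5.76 RPKM in KO and 4.43 RPKM in WT, a log2 difference of 0.31 and a ratio of 1.30 (interval 1.21 to 1.39). It works with Mcm9 in homologous recombination, and its difference was the most positive of all 34 genes, both as measured and against genes of the same GC content and length, where it stood at 0.21. Mcm10, which helps to activate the helicase, had 6.27 RPKM in KO and 5.68 RPKM in WT, a log2 difference of 0.12. Gins2, the only GINS subunit listed, was lower, with 20.4 RPKM in KO and 23.3 RPKM in WT, a log2 difference of -0.18 and a ratio of 0.877 (interval 0.850 to 0.905).

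Both listed subunits of the priming complex were of like abundance but went in opposite directions: Pola2, the accessory subunit of polymerase alpha, had 18.9 RPKM in KO and 20.6 RPKM in WT, and Prim2, the large primase subunit, had 16.1 RPKM in KO and 14.7 RPKM in WT. Their log2 differences were -0.12 and 0.13. Against genes of the same GC content and length Pola2 stood at -0.21, and Prim2 at -0.032.

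All 4 subunits of polymerase delta, the enzyme that makes most of the lagging strand, were lower in KO as deposited, with a median of -0.13, although Pold3 was at 0.0016 when the libraries were centred. Of all listed protein coding genes 63.7% were lower. Pold4, the smallest subunit, had the largest difference, with 10.6 RPKM in KO and 12.7 RPKM in WT, a log2 difference of -0.24 and a ratio of 0.834 (interval 0.769 to 0.905). Pold1, the catalytic subunit, had 8.29 RPKM in KO and 9.28 RPKM in WT, a log2 difference of -0.15. It was the least abundant of the 4, and the accessory subunit Pold2 the most abundant, with 26.0 RPKM in KO and 28.3 RPKM in WT. Pold3 had 14.3 RPKM in KO and 15.1 RPKM in WT. The 4 genes together had 59.3 RPKM in KO and 65.4 RPKM in WT. These genes are rich in GC, with a median of 58.0%, and against genes of the same GC content and length their median was -0.040. On that measure Pold2 stood above 0, at 0.071, and Pold1 was at -0.0099. Polymerase epsilon, which makes the leading strand, is represented by its histone-fold subunit Pole4 alone, which was higher, with 19.9 RPKM in KO and 17.0 RPKM in WT, a log2 difference of 0.21.

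The sliding clamp and its loader differed little. Pcna, the clamp that tethers polymerases to DNA and a gene that p53 can also activate, had 63.9 RPKM in KO and 59.4 RPKM in WT, a log2 difference of 0.10 and a ratio of 1.08 (interval 1.050 to 1.102). The loader subunits Rfc2 and Rfc5 were lower, at -0.072 and -0.12. Rfc2 had 48.1 RPKM in KO and 50.6 RPKM in WT, and Rfc5 had 13.2 RPKM in KO and 14.3 RPKM in WT. The single-strand binding protein RPA was lower by a like amount, at -0.097 for its large subunit Rpa1 (21.1 RPKM in KO, 22.6 RPKM in WT) and -0.076 for Rpa2 (24.5 RPKM in KO, 25.9 RPKM in WT).

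The genes that mature Okazaki fragments and remove RNA from DNA were the group with the most negative differences. All 5 were lower in KO under every library scaling used, with a median of -0.34, and together they had 53.4 RPKM in KO and 65.3 RPKM in WT. Of all listed protein coding genes 63.7% were lower. Fen1, the endonuclease that cuts the flap left by a displaced primer, had 17.5 RPKM in KO and 22.5 RPKM in WT, a log2 difference of -0.35 and a ratio of 0.777 (interval 0.744 to 0.811). Rnaseh2c, a scaffold subunit of the enzyme RNase H2, which removes ribonucleotides from DNA, had 14.2 RPKM in KO and 18.1 RPKM in WT, a log2 difference of -0.34 and a ratio of 0.780 (interval 0.737 to 0.826). Its partner Rnaseh2b was the rarest of all members in KO, with 1.71 RPKM in KO and 2.42 RPKM in WT, a log2 difference of -0.34 and a ratio of 0.707 (interval 0.650 to 0.769). The catalytic subunit Rnaseh2a differed less, with 6.36 RPKM in KO and 6.91 RPKM in WT, a log2 difference of -0.10 and a ratio of 0.920 (interval 0.865 to 0.978). The intervals of the scaffold subunits' ratios lie below that of the catalytic subunit, but they cover counting error only. Rnaseh2a shares exon bases with Prdx2, which had 93.0 RPKM in KO and 104 RPKM in WT. Reads of Prdx2 there cannot be told apart from its own, so this contrast is less certain than the intervals say. Lig1, the ligase that seals the fragments, had 13.7 RPKM in KO and 15.3 RPKM in WT, a log2 difference of -0.15. Against genes of the same GC content and length 4 of the 5 were lower (median -0.17), and Rnaseh2b stood lowest of all 34 members, at -0.44.

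Both topoisomerases were higher in KO under every library scaling used, where 3407 of all 9388 listed protein coding genes were higher as deposited. Top1, which relaxes supercoils by cutting 1 strand, had 18.9 RPKM in KO and 15.7 RPKM in WT, a log2 difference of 0.25 and a ratio of 1.21 (interval 1.18 to 1.23). Top2b, the type II enzyme that is not tied to dividing cells, had 27.5 RPKM in KO and 24.0 RPKM in WT, a log2 difference of 0.19. Both have a GC content near 42.1%, and against genes of the same GC content and length they stood at 0.098 and 0.034. The listed genes of nucleotide supply went in opposite directions. Rrm2, the S phase subunit of ribonucleotide reductase, had 59.5 RPKM in KO and 55.3 RPKM in WT, a log2 difference of 0.10. Tyms, the thymidylate synthase, had 11.9 RPKM in KO and 12.9 RPKM in WT, a log2 difference of -0.11.

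The direction of a member went with the base composition of its transcript. Of the 17 members with a GC content below their median of 47.9%, 12 were higher in KO, and of the 17 at or above it 15 were lower. Spearman's rho between GC content of the longest transcript and the log2 difference was -0.71 over the 34 members and -0.54 over 4673 genes over the floor with a gene model, as descriptions across genes of 1 pair of libraries. With transcript length rho was 0.34 over the members and 0.39 over those genes. In the 5 GC classes of equal size made from those genes, the members lower in KO were 0 of 6 in the class poorest in GC, then 5 of 11, 6 of 8, 5 of 5 and 4 of 4 in the richest. From the poorest class to the richest, the median of all genes was 0.17, 0.081, -0.083, -0.12 and -0.15. That of the members was 0.20, 0.069, -0.071, -0.15 and -0.19. The change of direction with GC content was thus also seen over all genes, and their share lower in each class was not computed. Measured from the median of genes of the same GC content and length, 20 of 34 members were lower, where 49.8% of the genes over the floor were, and the members' median was -0.027. How much of each member's difference comes with base composition was not tested.

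**Figure D3:**
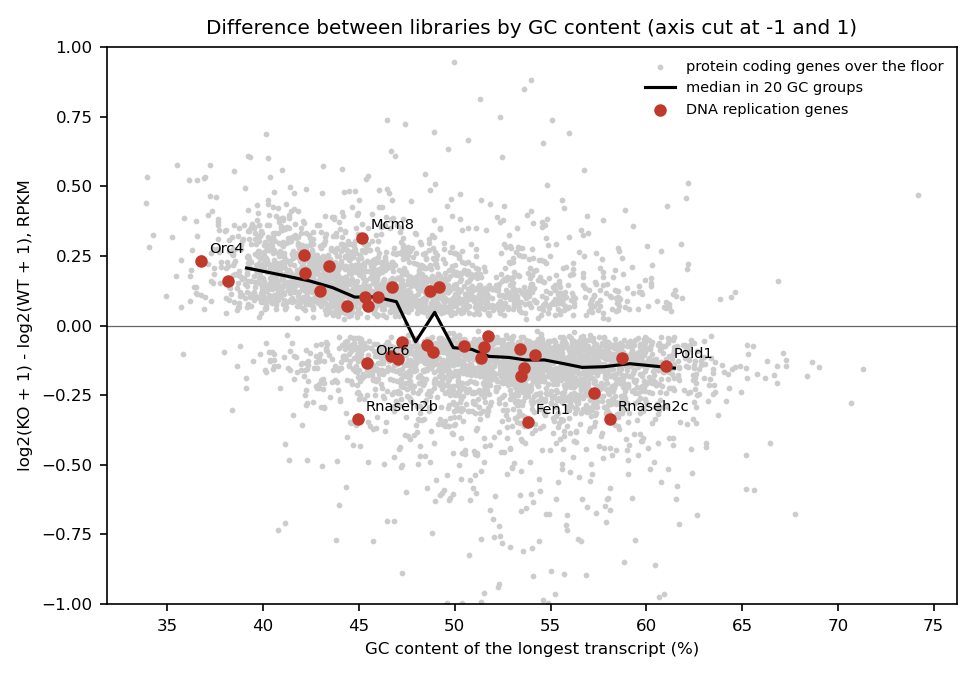
Log2 difference (KO minus WT, RPKM with a pseudocount of 1) against GC content of the longest transcript, with the replication genes in red, genes over the floor in grey and a black line for the grey genes' median in 20 GC groups. Red points below a GC content of 44.2% all lie above 0 and those above 52.4% all lie below it, and the black line crosses 0 between those values.

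The table leaves out genes close to no difference. Of 4694 genes over the floor only 2 lay between -0.02 and 0.02 on the log2 scale, against 528 between -0.12 and -0.08 and 424 between 0.08 and 0.12. No member lay between Mcm2 at -0.038 and Mcm4 at 0.069, a stretch that held 226 genes over the floor (4.81%). The members' median of -0.071 lies below this stretch, and the 22 replication genes outside the table have no value here.

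**Figure D4:**
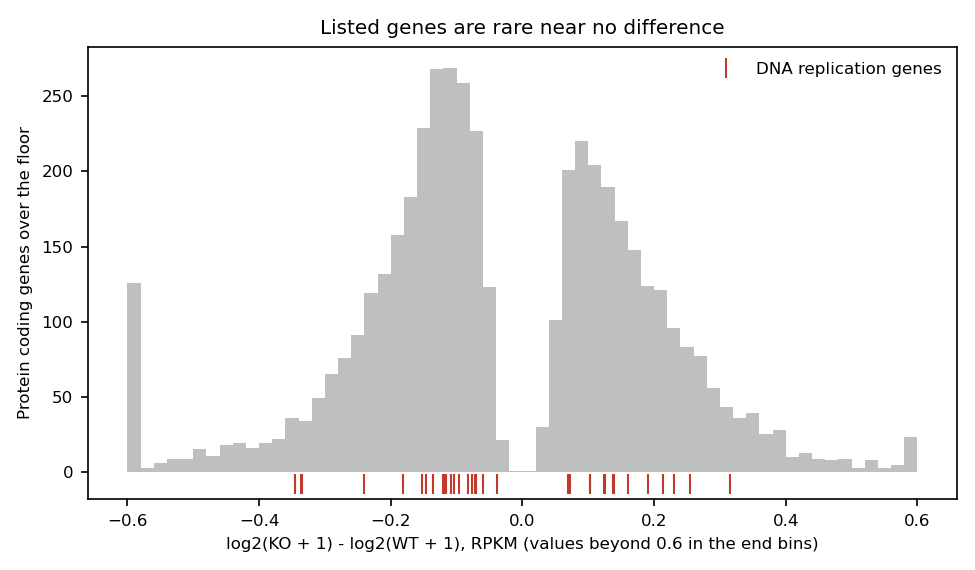
Number of protein coding genes over the floor by log2 difference (KO minus WT, RPKM with a pseudocount of 1), in grey bars, with a red tick for each of the 34 replication genes. The bars are nearly empty around 0, and the red ticks fall in the tall parts of both sides, from -0.35 to 0.31.

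The exons of 17 members overlap another gene, and the strand used in counting is not given in the sources used here, so reads from partners on opposite strands cannot be told apart. Fen1 shares the most: 78.8% of its exon bases with the antisense gene Gm10143, which had 30.6 RPKM in KO and 26.9 RPKM in WT, and 5.37% with Tmem258, which had 11.96 RPKM in KO and 14.01 RPKM in WT. Gm10143 was thus higher in KO, at 0.18, where Fen1 was lower. Gins2 shares 67.3% of its exon bases with Gse1 on the opposite strand, Orc2 29.8% with Nif3l1, Rnaseh2c 24.8% with Kat5, and Pold4 24.6% with AC109138.7 on its own strand. None of these 4 partners is analysed here. Some partners were far denser than the member they overlap. Orc5 shares 1.46% of its exon bases with Gm15421 on its own strand, which had 812 RPKM in KO and 787 RPKM in WT. Rnaseh2a shares 5.04% with Prdx2 on the opposite strand, which had 93.0 RPKM in KO and 104 RPKM in WT. Orc4 shares 5.98% with Acvr2a on the opposite strand, which was denser than Orc4, with 7.03 RPKM in KO and 5.56 RPKM in WT. Acvr2a was higher in KO, at 0.29, as Orc4 was. Pcna and Tyms have named pseudogenes, Pcna-ps1, Pcna-ps2 and Tyms-ps, whose reads could be split with the parent. The values of Fen1, Gins2, Orc2, Orc4, Orc5, Rnaseh2a, Rnaseh2c, Pold4, Pcna and Tyms are therefore less certain than their counting intervals say. The same limit holds for the other members with shared exon bases, among them Rfc2 (15.1%), Mcm7 (12.6%), Top2b (12.3%), Orc1 (10.8%) and Rfc5 (10.7%).

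Genes that act around the replication machinery were listed from textbook roles, without the 34 genes, and they held more genes higher in KO. Of 26 listed replication accessory genes 20 were higher, with a median of 0.11. Among all 9388 listed protein coding genes 3407 were higher, with a median of -0.11. Rif1, which controls origin timing and the choice of break repair, had 16.8 RPKM in KO and 10.7 RPKM in WT, a log2 difference of 0.60. Hells, a chromatin remodeller of dividing cells, had 9.74 RPKM in KO and 7.46 RPKM in WT (0.34), and 2810417H13Rik, the Pcna-associated factor, had 55.4 RPKM in KO and 45.0 RPKM in WT (0.29). Ten1, of the CST complex that works with polymerase alpha, was lower, with 6.92 RPKM in KO and 8.96 RPKM in WT (-0.33). Rif1, Hells and 2810417H13Rik have a GC content of 39.3%, 37.7% and 43.2%, and with GC content and length corrected for, accessory genes past the floor had a median of -0.022, where that of all genes over it was -0.072.

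Nucleotide synthesis genes followed with 11 of 17 higher, against 3407 of all 9388 listed protein coding genes, and a median of 0.059. Tk1, the thymidine kinase of the salvage pathway, was lower, with 7.59 RPKM in KO and 9.40 RPKM in WT (-0.28). Of 25 G1/S regulators 17 were higher, against that same share of all listed genes, with a median of 0.12. The regulators past the floor had the same median, which turned to -0.048 with GC content and length corrected for. The same correction gave 0.037 for the nucleotide synthesis genes past the floor. Among the G1/S regulators E2f6, a repressive E2F factor, had 43.3 RPKM in KO and 33.9 RPKM in WT (0.35). The inhibitor Cdkn1c, known as p57, had 170 RPKM in KO and 291 RPKM in WT (-0.77), and the cyclin Ccnd2 had 38.1 RPKM in KO and 51.9 RPKM in WT (-0.44). Cdkn1c is an imprinted brake on the cell cycle and Ccnd2 a G1 cyclin, so lower values in KO were seen for genes of opposite roles.

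Mitotic genes were split, 11 lower and 12 higher of 23, where 63.7% of all listed protein coding genes were lower. Their median was 0.058 over all of them and -0.080 over those past the floor (-0.090 corrected). Ncapd2, a condensin subunit, had 36.0 RPKM in KO and 63.4 RPKM in WT (-0.80), and Ccnb1, the mitotic cyclin, had 17.3 RPKM in KO and 12.97 RPKM in WT (0.39). Known p53 target genes were mostly lower, 19 of 22, against the same 63.7% of all listed genes. Their median was -0.24, against -0.11 for all listed genes, and -0.18 over those past the floor (-0.26 corrected). Phlda3, an inhibitor of Akt signalling, had 34.6 RPKM in KO and 79.8 RPKM in WT (-1.18), Ccng1 had 8.79 RPKM in KO and 15.3 RPKM in WT (-0.73), and the kinase Plk2 went the other way, with 22.5 RPKM in KO and 17.7 RPKM in WT (0.33). No replication gene differed as much as Phlda3, Cdkn1a, Cdkn1c or Ncapd2.

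**Figure D5:**
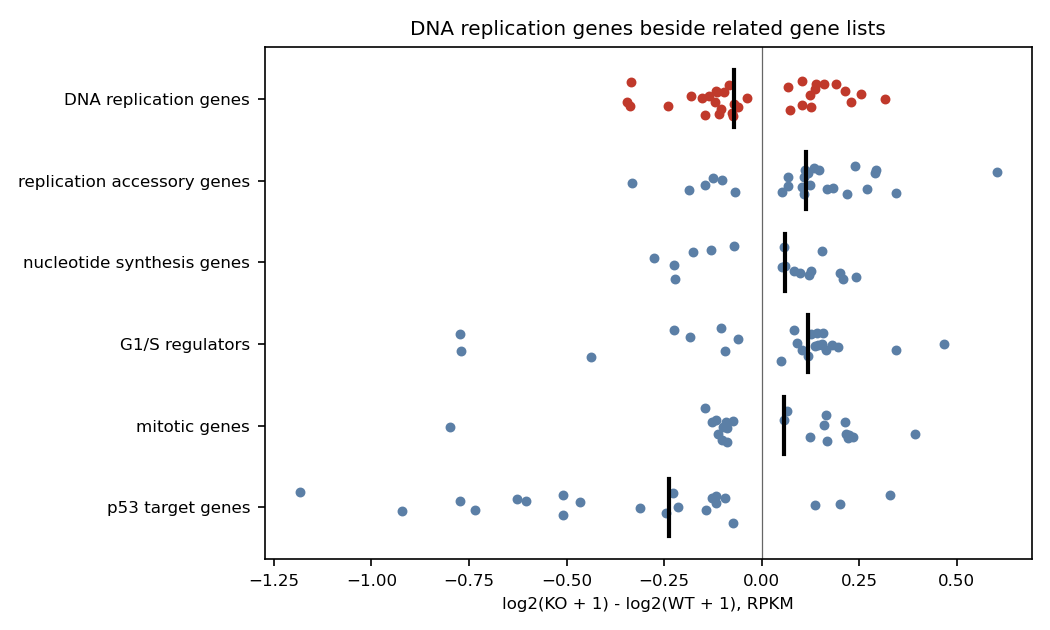
Log2 difference (KO minus WT, RPKM with a pseudocount of 1) of each listed gene in the DNA replication set, in red, and in 5 related lists, in blue, with a black bar at each list's median. The replication genes span -0.35 to 0.31 with a median of -0.071, and the p53 target genes reach -1.18 with a median of -0.24.

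Markers of other cell types were lower in the KO library. All 14 listed renal stroma markers were lower in KO, where 63.7% of all listed protein coding genes were. Their summed density was 138 RPKM in KO and 305 RPKM in WT, with a median log2 difference of -1.46. All 12 endothelial markers (6.89 RPKM in KO, 15.0 RPKM in WT) and all 12 ureteric bud markers (47.6 RPKM in KO, 64.8 RPKM in WT) were lower too. The sums lean on the densest genes. Foxd1 and Tcf21 of the stroma list had 43.1 and 51.9 RPKM in KO, against 63.7 and 79.5 RPKM in WT. Hoxb7 of the ureteric bud list had 28.6 RPKM in KO and 31.0 RPKM in WT. All 10 listed erythroid markers summed to 23.6 RPKM in KO and 632 RPKM in WT, and all 9 leukocyte markers to 2.22 RPKM in KO and 16.0 RPKM in WT. Most of the erythroid sum came from Hba-a1, Hba-a2, Hbb-b1 and Hbb-b2, with 133, 112, 237 and 145 RPKM in WT. Gata1 and Hba-x were at 0 in KO, but had only 0.036 and 0.21 RPKM in WT. The 13 nephron progenitor markers summed to 1418 RPKM in KO and 1350 RPKM in WT, with 6 lower, and the 9 early nephron markers to 227 RPKM in KO and 225 RPKM in WT, also with 6 lower. In such bulk samples fewer cells of a type and less RNA per cell cannot be told apart. The part of these markers in the differences of the replication genes was not tested.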

How the data were processed

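RNA of sorted Six2+ progenitors was sequenced in 1 KO and 1 WT library. The submitters' processing notes name CASAVA 1.8, Novoalign 2.08.02 and FastQC and list GRCm38 and mm10 as builds. Strand and counting rules were not found there. The authors deposited, per the file headers, a density for each library, a p-value and corrected p-value, a fold ratio and a signed fold change, which is a score that is negative where KO is lower. The deposited density is read as RPKM, scaled by the authors to gene length and depth, from the values: fold changes were whole multiples of 1 step, within 0.01 of a read, for 70 of 75 genes at 0 in WT and 150 of 171 genes at 0 in KO. Density times gene length agreed within 0.5% with 1 constant per library for 48 of 67 and 101 of 149 of them, which gives the approximate depths and estimated reads. The largest deposited corrected p-value is 0.0499827, and it compares 2 libraries, not genotypes. The deposited fold ratio exceeds the density ratio by a factor of 1.04 (0.057 in log2), the authors' own library scaling.

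A pseudocount of 1 was used, and the size rule was 1.2-fold. Intervals are exact (Clopper-Pearson). GC content, length and overlaps came from GENCODE vM21, promoters from RefSeq on GRCm38.p6. The correction subtracts the median of genes over the floor in the same of 10 GC and 4 length bins, with the median of all of them added back. Named were Trp53, Six2, Cited1 and Cdkn1a, members at 1.2-fold, the extremes of each role group by difference and density, and from each related list up to 3 genes in each direction past 1.2-fold and the floor. The remaining members are named so that each is accounted for. Members and lists were chosen with earlier results of these data known. Alternatives were other pseudocounts, scalings, floors and size rules. The scripts (Python 3.11.15, pandas 2.3.3, numpy 2.4.6, SciPy 1.17.1) were tested on simulated data.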

Additional observations from a re-analysis of the deposited data

How the results depend on the processing

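With 1 library per genotype nothing limits these values but counting error and the processing, and the spread between embryos is unknown. No paired analysis was possible because each genotype has 1 library. The members' median of -0.071 became -0.016 with the authors' scaling and 0.00051 when centred. The count of 20 members lower was 10 among the densest 25% of genes (at or over 19.9 RPKM), which hold fewer members. The members higher there were Mcm4, Pcna, Top2b and Rrm2, so the smaller count is not a smaller share. The median of all members in the densest 25% was -0.074. The 3 members at least 1.2-fold lower became 1 in the densest 25%, 7 at 1.1-fold and 0 at 1.5-fold. The 1 member at least 1.2-fold higher became 3 with a pseudocount of 0.25, 0 with a pseudocount of 4, 4 when centred, 4 with the authors' scaling, 0 when corrected for GC content and length, 0 in the densest 50%, 0 in the densest 25%, 7 at 1.1-fold and 0 at 1.5-fold. Over all genes, the 1954 at least 1.2-fold lower became 3016 with a pseudocount of 0.25, 828 with 4, 527 in the densest 50%, 226 in the densest 25%, 4064 at 1.1-fold and 526 at 1.5-fold. The 759 higher became 338 with a pseudocount of 4, 1414 when centred, 1173 with the authors' scaling, 326 when corrected for GC content and length, 381 in the densest 50%, 165 in the densest 25%, 2121 at 1.1-fold and 60 at 1.5-fold. Fewer genes entered the densest 50% and 25%; otherwise the cause was not tested. Mcm2 changed sign with the authors' scaling, Mcm2, Mcm6 and Pold3 when centred, and Orc2, Orc4, Orc5, Mcm4, Mcm10, Prim2, Pcna, Top2b and Rrm2 when corrected for GC content and length. The members at least 1.2-fold different with a pseudocount of 1 (Fen1, Rnaseh2b, Rnaseh2c and Mcm8) kept their sign under all of these settings. Orc4, whose ratio without a pseudocount was 1.24, did not, and stood at -0.058 when corrected for GC content and length.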

Other observations

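Of the 7 chromosomes with at least 3 replication genes, 4 held genes of 1 direction only, a grouping chosen after the values were seen. All 5 members on chromosome 2 (Pcna, Mcm10, Orc4, Top1 and Mcm8) were higher in KO, where the genes over the floor on that chromosome had a median log2 difference of -0.065. They also stood above genes of the same GC content and length, by 0.014 for Orc4 to 0.21 for Mcm8. Offsets smaller than 0.051, the median half-width of the members' counting intervals, such as those of Orc4 and Pcna (0.027), are within counting error of that size. All 4 members on chromosome 19 (Fen1, Rnaseh2c, Pold4 and Pola2) were lower in KO, where the genes over the floor there had a median of -0.082. They stood below genes of the same GC content and length, at -0.070 for Pold4 to -0.21 for Pola2. All 3 on chromosome 7 (Pold1, Pold3 and Lig1) and all 3 on chromosome 8 (Orc6, Gins2 and Rnaseh2a) were lower in KO too, where the medians of genes over the floor were -0.11 and -0.090. Measured from genes of the same GC content and length they stood at -0.0099, -0.12 and -0.028, and at -0.21, -0.056 and 0.020. The 5 on chromosome 5 were split, 4 lower and 1 higher, as were the 3 each on chromosomes 1 and 11. Among all listed protein coding genes 63.7% were lower in KO, and no test of this grouping was made.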
